A study of Homo sapiens with 4 samples.

Results

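Counts listed under 5 genes of cholesterol and ceramide synthesis, and under 5 features on the DNA strand opposite them, were compared between C4-2 cells given β-hydroxybutyrate (BHB) and C4-2 cells in medium alone. They form 5 pairs: FDPS with RUSC1-AS1, IDI1 with IDI2-AS1, SREBF2 with SREBF2-AS1, ACAT2 with TCP1, and CERS6 with CERS6-AS1. They were picked by name, as 10 of the 59385 features in the table, and all 10 were found. The names were proposed with the counts of these same libraries in view, so the levels within a pair and the BHB contrast are given as a description.

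C4-2 is a human prostate cancer line of the LNCaP lineage that grows without androgen, and BHB is the main circulating ketone body. The BHB group held 2 libraries from cells kept for 3 days with 50 mM BHB in RPMI medium, and the control group held 2 libraries from cells kept for the same time in RPMI medium. Both were grown with serum, and total RNA was made into libraries with a stranded kit. A cell line is a single lineage, and separate cultures for the 2 libraries of a group are not stated in the labels. The p-values therefore rest on the spread between libraries alone, and that spread may be technical. In bulk RNA, fewer cells expressing a gene and less of its RNA per cell cannot be told apart.

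Cholesterol is built in the mevalonate pathway. ACAT2, the cytosolic acetoacetyl-CoA thiolase, joins acetyl groups at its entrance, IDI1 converts isopentenyl diphosphate to its isomer, and FDPS joins these units to farnesyl diphosphate, from which sterols and the lipid anchors of small GTPases are made. SREBF2 encodes SREBP-2, the transcription factor that switches the pathway on when sterols are scarce. CERS6 is a ceramide synthase, one of a family that attaches a fatty acyl chain to a sphingoid base. TCP1, on the other strand from ACAT2, encodes a subunit of TRiC/CCT, the chaperonin that folds actin and tubulin. The 4 remaining features, named with -AS1, are noncoding.

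All 10 members could be placed on GENCODE release 29 (GRCh38). FDPS (chromosome 1, 155308748 to 155320666, plus strand) and RUSC1-AS1 (155316863 to 155324176, minus strand) overlap end to end, with 693 exonic bases in common. IDI1 (chromosome 10, 1039152 to 1049170, minus strand) shares 643 exonic bases with the last exon of IDI2-AS1 (1022666 to 1044201, plus strand). SREBF2 (chromosome 22, 41833079 to 41907308, plus strand) and SREBF2-AS1 (41831215 to 41834665, minus strand) are read away from each other and share 280 exonic bases around the first exon of SREBF2. ACAT2 (chromosome 6, 159760328 to 159779055, plus strand) and TCP1 (159778498 to 159789749, minus strand) meet at their 3′ ends over 397 exonic bases. CERS6 (chromosome 2, 168455862 to 168775137, plus strand) has the longest overlap of the 5 pairs, 2999 exonic bases with CERS6-AS1 (168771953 to 168786961, minus strand), which is 69.7% of the exon length of CERS6-AS1.

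**Figure D1:**
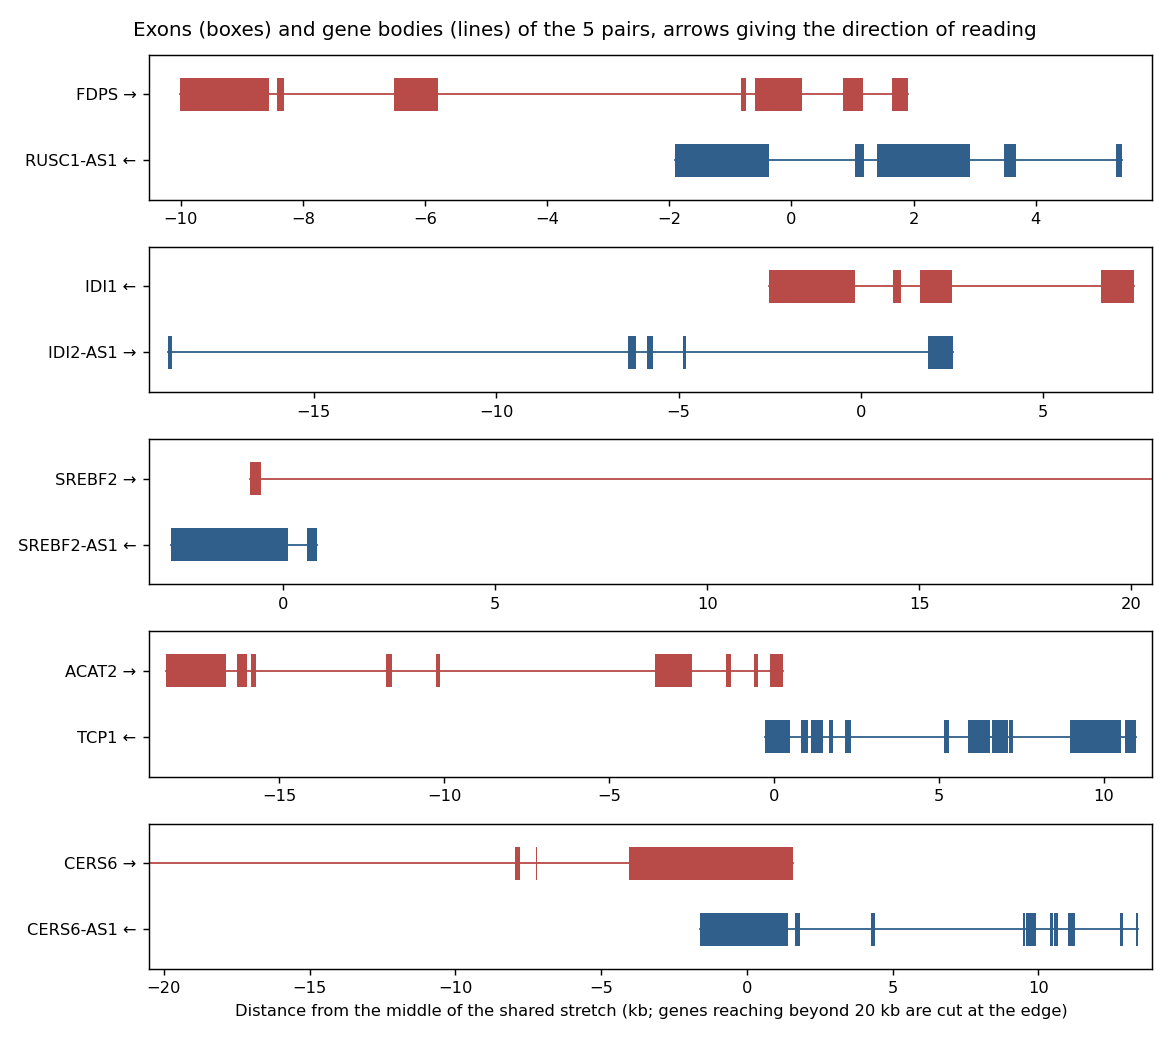
Exons (boxes) and gene bodies (lines) of the 5 pairs in GENCODE release 29, with distance in kb from the middle of the shared stretch on the horizontal axis and arrows for the direction in which each gene is read. The shared stretch lies at the 3′ end of FDPS, ACAT2 and CERS6 and at the 5′ end of SREBF2.

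The shared exons of 4 pairs include coding bases, and a stretch of each is printed because a read from it differs between the 2 sides by strand alone. The sequences come from the GENCODE release 29 transcripts of each side (GRCh38), written 5′ to 3′ for its own strand, with capitals on the start or stop codon of the coding gene or on its complement. For FDPS the stretch ends with the stop codon (chr1:155320550-155320609), for IDI1 it opens with a start codon (chr10:1044081-1044140), for SREBF2 it opens with the start codon (chr22:41833271-41833330), and for ACAT2 it ends with the stop codon (chr6:159778800-159778829).
FDPS: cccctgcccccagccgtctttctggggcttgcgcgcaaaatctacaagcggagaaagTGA
RUSC1-AS1: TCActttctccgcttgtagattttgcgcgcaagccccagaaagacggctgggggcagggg
IDI1: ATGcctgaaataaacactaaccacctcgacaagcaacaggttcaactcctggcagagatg
IDI2-AS1: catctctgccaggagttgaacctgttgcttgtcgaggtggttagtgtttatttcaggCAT
SREBF2: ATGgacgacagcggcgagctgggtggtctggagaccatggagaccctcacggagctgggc
SREBF2-AS1: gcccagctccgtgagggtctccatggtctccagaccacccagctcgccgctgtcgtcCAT
ACAT2: ggaatagcaatgtgtgttcagagagaaTGA
TCP1: TCAttctctctgaacacacattgctattcc

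The exon of SREBF2-AS1 also spans the promoter of SREBF2. SREBP proteins bind sterol regulatory elements, and the motif TCACNCCAC was searched on both strands of RefSeq promoter windows (GRCh38.p14), which run from 250 bases before to 50 after a start. It was found in 1.13% of 35116 windows. Windows of 8 of the 10 members were searched, all but ACAT2 and CERS6-AS1. Among those searched, the motif was found in that of SREBF2, 133 bases before the start and on the plus strand. The stretch around it (chr22:41832932-41833020, plus strand), with the motif in capitals, lies wholly inside 1 exon of SREBF2-AS1, so reads counted under SREBF2-AS1 can come from promoter sequence of SREBF2.
SREBF2 promoter: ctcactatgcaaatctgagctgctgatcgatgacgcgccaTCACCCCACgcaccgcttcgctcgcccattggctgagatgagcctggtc
The CCAAT box, the site of the factor NF-Y, was in 34.6% of all windows. It had 3 matches before the start of FDPS, 3 in 1 of the RUSC1-AS1 windows and 1 each in the windows of SREBF2, TCP1 and CERS6. RefSeq gives several starts for IDI1, and the windows of 2 of them held CCAAT, with 3 and 2 matches. A match describes the letters of the window and shows no binding.

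The total count per library was 2272004 and 2233711 in the BHB libraries and 2565080 and 2237634 in the control libraries. Values are raw counts listed under a name, or counts scaled to a common library total (CPM, taken over all counts in the library). The kit keeps the strand, but the strand setting of the counting is not given in the sources used here. Counts listed under one side of a pair may therefore come from RNA of the other side, and which RNA was measured cannot be told from these counts. The control libraries differed from each other more than the BHB libraries did. Over 2019 tested coding genes with no gene on the other strand, the median log2 ratio of replicate 1 to replicate 2 was −0.02 for BHB and 1.42 for controls. Over 664 tested noncoding features opposite a coding gene it was 0.01 for BHB and −0.14 for controls. Of the markers listed, all 9 of luminal prostate epithelium could be tested and had mean counts of 38.0 to 10361. The summed counts of the basal, fibroblast, endothelial and leukocyte lists were 0 to 12 per library, with KRT5, COL1A2, CDH5 and PTPRC at 0 in all 4.

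In the mevalonate pair FDPS with RUSC1-AS1, nearly all counts stood under the noncoding name. FDPS had 54 and 55 counts in the BHB libraries and 93 and 38 in the control libraries. RUSC1-AS1 had 3013 and 2748 counts in the BHB libraries and 3795 and 3341 in the control libraries. Both BHB values of FDPS were inside the control range, while both BHB values of RUSC1-AS1 were below it. RUSC1-AS1 was thus 55.8 and 50.0 times FDPS with BHB and 40.8 and 87.9 times FDPS in controls. Per kilobase of exon, over all 4 libraries, it averaged 917 counts against 16.1 for FDPS, and 98.4% of the 17886 features with a mean of at least 1 count were below it. RUSC1-AS1 is opposite RUSC1 too, a gene with 14 and 11 counts with BHB and 23 and 15 in controls.

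IDI1 was the one coding member whose BHB libraries both stood above both controls. It had 60 and 59 counts with BHB and 31 and 40 in controls, which is 26.4 ± 0.0036 CPM with BHB and 14.98 ± 4.09 CPM in controls (SD, n = 2 each). The exact Poisson 95% intervals, for counting error alone, were 45.8 to 77.2 and 44.9 to 76.1 counts with BHB, and 21.1 to 44.0 and 28.6 to 54.5 counts in controls. The intervals of control replicate 2 and the BHB libraries overlapped. IDI2-AS1, on the other strand, had 180 and 223 counts with BHB and 248 and 253 in controls. Its plain counts were lower in both BHB libraries, but relative to all counts the groups overlapped, at 79.2 and 99.8 CPM with BHB and 96.7 and 113 CPM in controls. IDI2, a paralogue of IDI1 that is also opposite IDI2-AS1, had 128 and 125 counts with BHB and 160 and 141 in controls. Exon length of IDI2-AS1 in the table, 3348 bases, was far above the 1276 bases of release 29, so its gene model there was larger than the one drawn.

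ACAT2 was the exception in which the cholesterol gene held more counts than the opposite side. It had 1727 and 1764 counts with BHB and 1844 and 1862 in controls. TCP1 had 459 and 519 counts with BHB and 602 and 463 in controls. Relative to all counts both groups overlapped for both genes, with ACAT2 at 775 ± 20.9 CPM with BHB and 776 ± 80.1 CPM in controls, and TCP1 at 217 ± 21.4 CPM with BHB and 221 ± 19.6 CPM in controls (SD, n = 2 each). ACAT2 held 6.52 times as many counts per kilobase as TCP1 over all libraries. In release 29 ACAT2 also lies opposite SOD2-OT1, a noncoding feature, over 1458 exonic bases. SOD2-OT1 had 0 counts in all 4 libraries. Exons of ACAT2 measured 2639 bases in the table and 4299 in release 29, so the stretches shared with TCP1 and SOD2-OT1 may differ from those given here.

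SREBF2 was the lowest of the 10 members. It had 12 and 18 counts with BHB and 22 and 2 in controls, and the exact Poisson 95% interval of the lowest library, control replicate 2, was 0.242 to 7.22 counts. SREBF2-AS1 had 362 and 343 counts with BHB and 327 and 333 in controls. It was the steadiest of the noncoding members in plain counts, and SREBF2 the most spread of all members, with a log2 ratio of 3.26 between the controls. Relative to all counts SREBF2-AS1 stood at 159 and 154 CPM with BHB, above the 127 and 149 CPM of the controls, but with scaling by edgeR's trimmed mean of M-values (TMM) the groups overlapped.

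CERS6-AS1 had the highest mean count of the 10 members over the 4 libraries, and the largest excess over its partner. In control replicate 1 RUSC1-AS1 held more counts than CERS6-AS1 (3795 against 3062). CERS6-AS1 had 4454 and 4588 counts with BHB and 3062 and 3437 in controls. In CPM that is 2007 ± 66.2 with BHB and 1365 ± 242 in controls (SD, n = 2 each). Both BHB libraries stood above both controls. CERS6 itself had 30 and 30 counts with BHB and 50 and 9 in controls, so both BHB libraries were inside the control range. Over the 4 libraries CERS6-AS1 had 207 times the count per kilobase of CERS6, and 67 of all features had a higher mean count than CERS6-AS1.

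**Figure D2:**
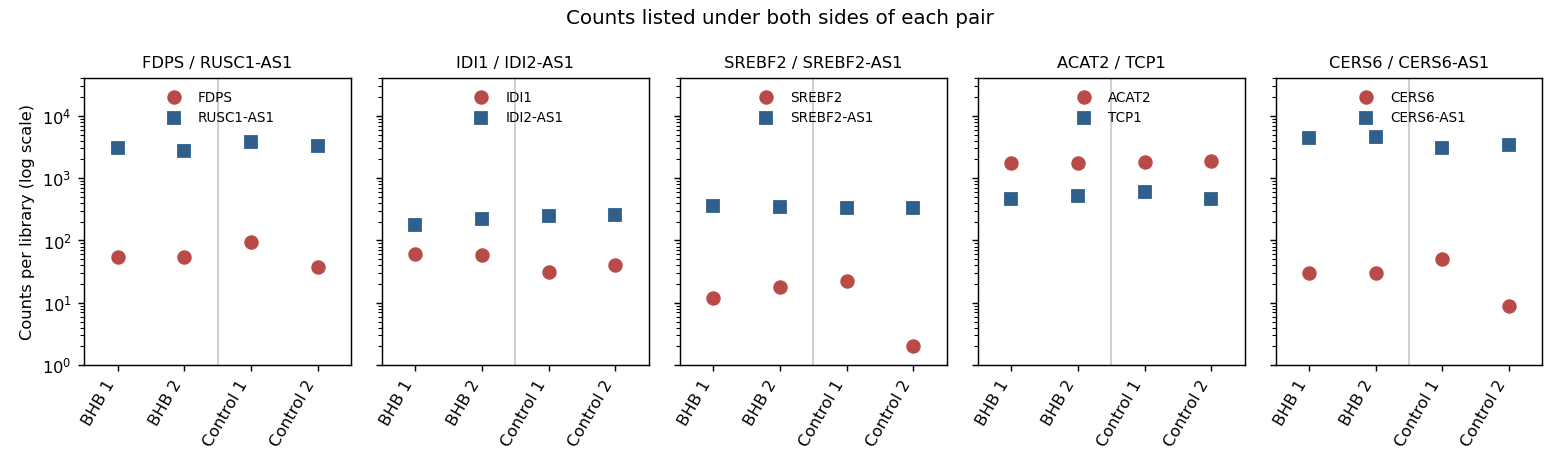
Counts per library (log axis) under both sides of each pair, with the 2 BHB libraries left of the 2 control libraries. The noncoding side lies above the coding gene in 4 pairs, ACAT2 lies above TCP1, and the controls differ most for SREBF2 (22 and 2 counts) and CERS6 (50 and 9 counts).

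Whether BHB changed any of these features was asked with edgeR's quasi-likelihood test across 9295 features, with TMM scaling and Benjamini-Hochberg adjustment over all of them. No member was called at an adjusted p under 0.05, against 0% of all features called higher and 0% called lower. All 10 members passed the filter on low counts, and each had an adjusted p of 1.0. An unadjusted p under 0.05 was reached by 0 members and by 210 features in all. DESeq2 and limma-voom also called 0 members, and 0 members reached an unadjusted p under 0.05 in either. The standard errors bear on what could be seen, since the median over all features was 0.51 on the log2 scale.

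IDI1 had a log2 fold change of BHB over control of 0.76 (SE 0.45) and SREBF2 of 0.52 (SE 0.90). Their order turned in other fits: SREBF2 had 0.86 and IDI1 0.80 with the replicate number as a block, and SREBF2 had 2.64 and IDI1 0.37 without control replicate 1. CERS6-AS1 had 0.50 (SE 0.28), CERS6 0.21 (SE 0.65) and SREBF2-AS1 0.13 (SE 0.27). Negative values were those of IDI2-AS1 at −0.28 (SE 0.29), RUSC1-AS1 at −0.26 (SE 0.24), FDPS at −0.13 (SE 0.41), TCP1 at −0.06 (SE 0.24) and ACAT2 at −0.05 (SE 0.26). The median absolute log2 fold change was 0.24 over the members and 0.28 over all features tested. In TMM-scaled CPM both BHB libraries lay above both controls for IDI1 and CERS6-AS1, 2 of 10 members against 15.1% of all features. They lay below both controls for RUSC1-AS1, 1 of 10 members against 14%. In CPM of all counts SREBF2-AS1 joined the first group, making 3 of 10 against 19.7%, and RUSC1-AS1 was still the 1 in the second, against 13.8%.

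The control libraries decided several of these values. With 1 control left, the spread comes from the BHB pair alone, and the lone control is assumed to vary like it; the BHB pair was the closer of the pairs, with a chi-square per degree of freedom of 2.44 against 12.6 for the controls. Without control replicate 1, edgeR called 3 members lower: RUSC1-AS1 at −0.42, IDI2-AS1 at −0.53 and ACAT2 at −0.30. Without control replicate 2 it called 4 members higher: IDI1 at 1.28, CERS6-AS1 at 0.91, SREBF2-AS1 at 0.45 and ACAT2 at 0.26. ACAT2 was thus called in opposite directions. In all, 6.38% of 9960 features were called lower and 5.84% higher without control replicate 1. Without control replicate 2, 7.21% of 10973 features were called lower and 9.43% higher. IDI1 and CERS6-AS1 stayed positive, at 0.37 and 0.19 without control replicate 1, and RUSC1-AS1 stayed negative, at −0.06 without control replicate 2.

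**Figure D3:**
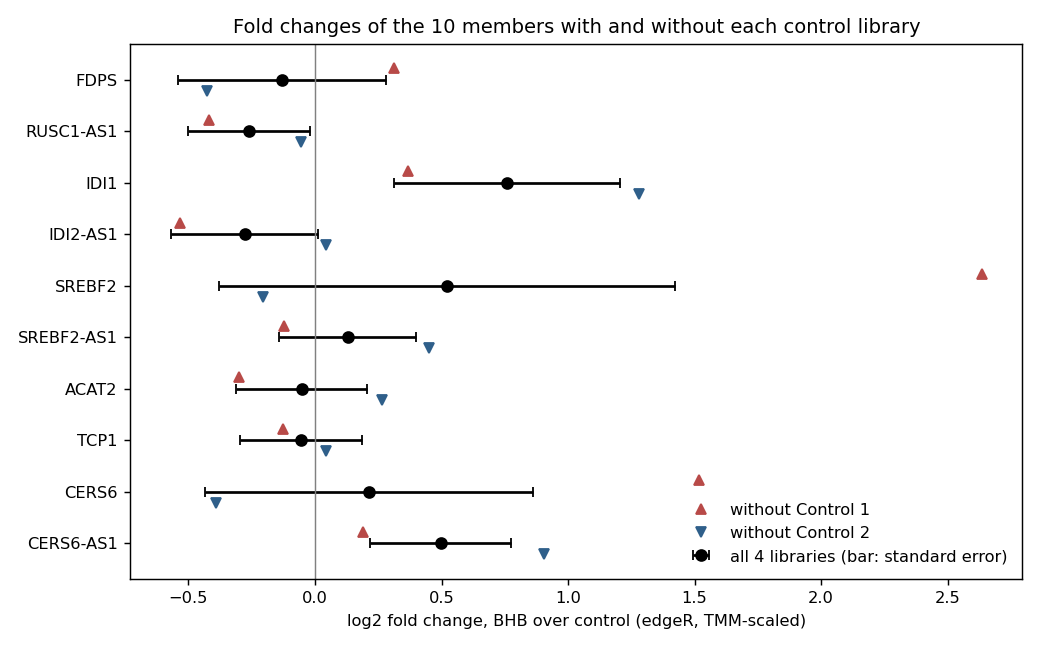
Log2 fold change of BHB over control for each member, with all 4 libraries (black points, bars for the standard error) and without control replicate 1 or control replicate 2 (triangles). IDI1 and CERS6-AS1 lie right of 0 and RUSC1-AS1 left of 0 in all 3 fits, while the other 7 members lie on both sides.

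The balance within a pair needs no scaling between libraries. It was taken in each library as log2 of the first-named over the second-named feature (each count plus 0.5). For IDI1 over IDI2-AS1 it was −1.58 and −1.91 with BHB and −2.98 and −2.65 in controls. Both BHB ratios lay above both control ratios, a difference of 1.07. IDI1 held 25% and 20.9% of the counts of its pair with BHB (95% Wilson intervals 19.9 to 30.8 and 16.6 to 26.0) and 11.1% and 13.7% in controls (7.94 to 15.3 and 10.2 to 18.1). The interval of control replicate 2 overlapped that of BHB replicate 2. In plain counts IDI1 was higher and IDI2-AS1 lower in both BHB libraries than in either control.

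The ratios of the other 4 pairs overlapped between the groups. FDPS over RUSC1-AS1 had log2 ratios of −5.79 and −5.63 with BHB and −5.34 and −6.44 in controls. SREBF2 over SREBF2-AS1 had −4.86 and −4.21 with BHB and −3.86 and −7.06 in controls. CERS6 over CERS6-AS1 had −7.19 and −7.23 with BHB and −5.92 and −8.50 in controls. In these 3 pairs both BHB ratios lay between the 2 control ratios, and control replicate 1 was the higher control, as it was for coding genes with no gene opposite. The part of that difference in these ratios was not tested. The same log2 ratio was taken in 934 pairs of a coding gene and an opposite noncoding feature, with summed means of at least 20 counts. Its median difference, replicate 1 minus replicate 2, was 0.64 for controls and 0 for BHB. ACAT2 over TCP1 had 1.91 and 1.76 with BHB and 1.61 and 2.01 in controls.

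With 2 libraries against 2 the two-sided exact permutation test cannot go below p = 0.33, so it cannot pass a threshold of 0.05. It gave that value for the IDI1 pair and 1.0 for the other 4, and 1.0 for all 5 after adjustment over them. Among 934 pairs of a coding gene and an opposite noncoding feature whose means summed to 20 counts or more, the ratio was higher in both BHB libraries in 14.8% and lower in both in 16.6%. The IDI1 pair was 1 of 4 such pairs here. The noncoding feature had more counts per kilobase in 71.1% of the 934 pairs and in all 4 here, where the names were chosen with these levels known.

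**Figure D4:**
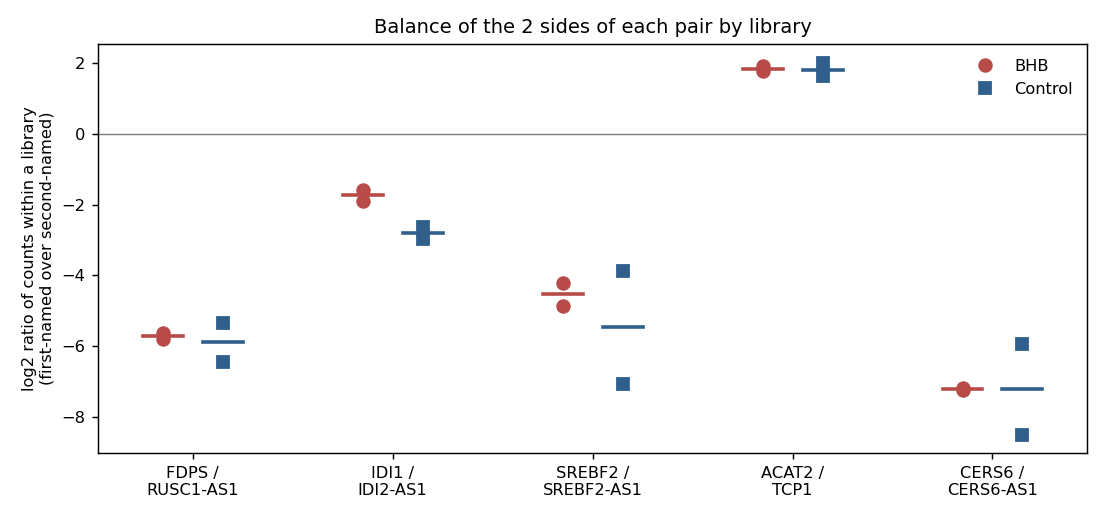
Log2 ratio of the first-named to the second-named feature of each pair within a library (points) and the group mean (bars), BHB left of control. The groups separate for IDI1 over IDI2-AS1, with −1.58 and −1.91 for BHB and −2.98 and −2.65 for control, and overlap for the other 4 pairs.

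The cholesterol pathway was read from a list of 23 genes, ACAT2, IDI1 and FDPS included, of which 10 could be tested and 0 were called. Their log2 fold changes ran from −0.66 (LBR) to 0.76 (IDI1), with a median of −0.17 against −0.03 over all features. The 7 tested genes that are not members had a median of −0.29. Apart from the members, the genes with the most counts included MVK, IDI2 and FDFT1. MVK, mevalonate kinase, had 222 and 232 counts with BHB and 321 and 259 in controls (log2 fold change −0.29, SE 0.25). FDFT1, squalene synthase, had 56 and 48 counts with BHB and 128 and 23 in controls (−0.34, SE 0.59). In 7 of the 10 tested genes the BHB libraries were inside the control range in CPM.

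The list of SREBP control and of cholesterol uptake and efflux gave 0 calls among 10 tested of 20 genes, SREBF2 included, with a median log2 fold change of −0.09. SREBF1, which encodes the SREBP-1 factors of lipid synthesis, had 370 and 361 counts with BHB and 427 and 305 in controls. NPC1 and NPC2 encode the proteins that carry cholesterol out of lysosomes. NPC1 had a log2 fold change of 0.04 (SE 0.27) and NPC2 of −0.44 (SE 0.28). NR1H3, the liver X receptor alpha gene, had −0.12 (SE 0.25).

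In the ceramide and sphingolipid list, which includes CERS6, 17 of 35 genes could be tested and 0 were called, with a median of 0.09. SMPD4, a neutral sphingomyelinase, held the most counts, 1092 and 910 with BHB and 1684 and 1229 in controls (log2 fold change −0.47, SE 0.24). ORMDL2, a regulator of serine palmitoyltransferase, had 885 and 922 counts with BHB and 785 and 824 in controls (0.20, SE 0.27). CERS2, the synthase of very long acyl chains, had 504 and 478 counts with BHB and 520 and 438 in controls (0.09, SE 0.24). CERT1, which carries ceramide to the Golgi, had 203 and 229 counts with BHB and 197 and 189 in controls (0.21, SE 0.28). Of the 6 ceramide synthase genes CERS2 held the most counts per kilobase, 104 on average, followed by CERS6 with 4.34.

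The chaperonin list was the one with all tested genes below 0. All 8 TRiC/CCT genes had a negative log2 fold change, with a median of −0.55, and 0 were called. TCP1, with −0.06, was the nearest to 0. CCT5 had 216 and 197 counts with BHB and 499 and 84 in controls, and CCT3 had 92 and 91 counts with BHB and 287 and 48 in controls. CCT7 and CCT4 had −0.84 (SE 0.58) and −0.73 (SE 0.54). In 7 of the 8 genes the BHB libraries were inside the control range in CPM. The median over the 7 genes other than TCP1 was 0.70 without control replicate 1, where 1 of them was called higher, and −1.24 without control replicate 2, where 6 were called lower. For the 7 tested cholesterol synthesis genes that are not members, it was 0.97 and −0.36 in the same order.

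**Figure D5:**
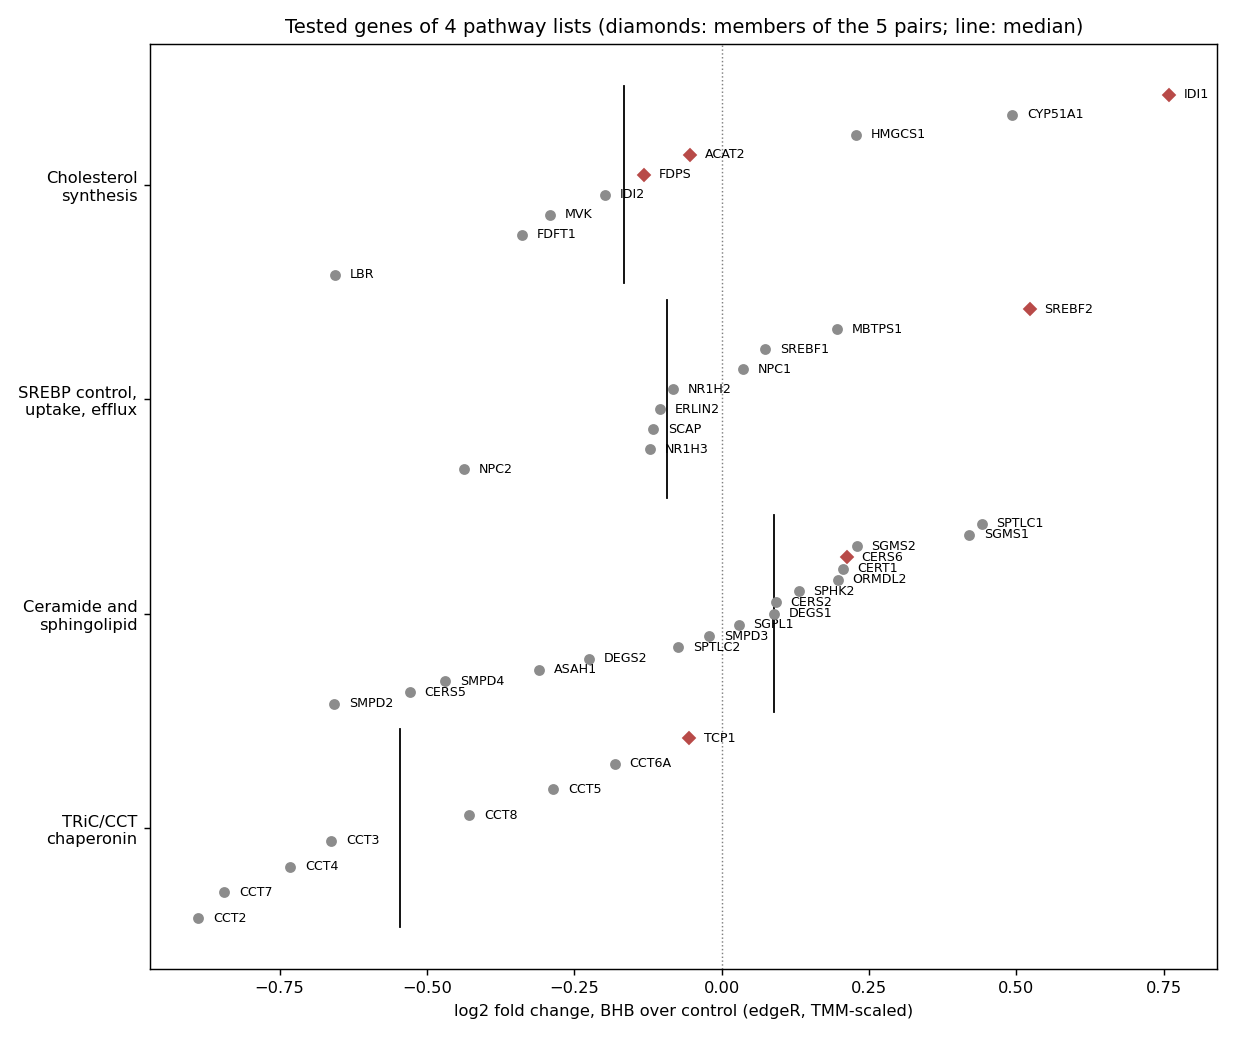
Log2 fold change of BHB over control for the tested genes of 4 pathway lists (each point a gene, diamonds for members of the pairs, lines for the median over all tested genes of a list, 2 of which are not drawn). None was called; the medians are −0.17, −0.09, 0.09 and −0.55 from top to bottom.

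Other pathway genes also have exons opposite another feature, in 19 pairs whose means summed to 100 counts or more, and the opposite feature had more counts per kilobase in 6 of them. The largest of these was STARD4, a sterol carrier gene, with 0 counts in all 4 libraries. STARD4-AS1 on its other strand had 1205 and 1214 counts with BHB and 1337 and 1466 in controls. A count of 0 allows up to 3 counts, which is 1.17 to 1.34 CPM in these libraries. In the named pairs with a coding gene opposite, the pathway gene had more counts per kilobase. ORMDL2 had 318 counts per kilobase against 105 for DNAJC14, CERS2 104 against 6.73 for SETDB1, SREBF1 44.4 against 4.33 for RAI1, and SMPD4 134 against 83.1 for MZT2B. NPC1 and RMC1 were nearly level, at 36.0 and 35.9 counts per kilobase.

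Members with a mean of at least 50 counts were set against 2968 other features of that size, clone-named ones left out, by the Euclidean distance of centred log2 CPM over the 4 libraries. The nearest to FDPS was STIP1, a co-chaperone gene, with 459 and 443 counts with BHB and 775 and 313 in controls (distance 0.06). The nearest to CERS6-AS1 was DSG2-AS1, opposite a desmosome gene, with 635 and 658 counts with BHB and 428 and 502 in controls (0.04). LIMD1-AS1 was nearest to SREBF2-AS1 (0.01), WDR83 to RUSC1-AS1 (0.03), EXOSC8 to IDI2-AS1 (0.02), CRMP1 to ACAT2 (0.03) and SLC26A1 to TCP1 (0.05). With 4 libraries a small distance says nothing of shared function or control.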

How the data were processed

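The authors deposited raw counts per feature for 4 libraries, with an exon length each. Per the submitters' processing notes, the tools included HISAT2 2.2.1, featureCounts 2.0.3, edgeR and limma, on GRCh38 (hg38). Which annotation release and strand setting were used, and how reads with several matches were handled, is not given in the sources used here.

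Counts were fitted with edgeR 4.0.16 in R 4.3.3 (filterByExpr, TMM, robust quasi-likelihood F-test), after a check on simulated counts. The pass mark of that check was set only for counts with less spread between libraries than these (common dispersion 0.11). It does not show what size of change could be found here. Alternatives were DESeq2 1.42.0, limma-voom (limma 3.58.1), other scalings and filters, a replicate block and leaving out each library. SE came from the F statistic. Intervals and the limit of 3 counts for a 0 cover counting error only, since reads lacking molecular identifiers may repeat a molecule. Replicates differed beyond sampling noise (chi-square per degree of freedom 2.44 for BHB and 12.6 for controls), so each library counted once.

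Features were placed on GENCODE release 29 by name or current symbol (67.3%), and 59.2% of those had the same exon length there; overlaps came from bedtools 2.31.1. Members, lists and tests were chosen with earlier results of these data known. Named besides the members were the 4 list genes with the most counts, called genes (0), the 10 largest opposite pairs of list genes, and the nearest profile per member. LBR and RUSC1 were added after their values were seen. Some list genes are not reported here.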

Additional observations from a re-analysis of the deposited data

How the results depend on the processing

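With 2 other scalings, 2 other filters, limma-voom, DESeq2 or the replicate block, 0 members and 0 features were called, and the 10 log2 fold changes kept their sign under all of these. With total counts and no scaling factor CERS6-AS1 had an unadjusted edgeR p of 0.0092 and an adjusted p of 0.63. In that fit 534 of 9295 features had an unadjusted p under 0.05, against 210 in the main fit. When each library was omitted in turn, the features called higher numbered 0 to 1035 and those called lower 0 to 791, with 0 to 4 and 0 to 3 members among them. Over these fits the log2 fold change ran from −0.43 to 0.31 for FDPS, −0.53 to 0.045 for IDI2-AS1, −0.21 to 2.64 for SREBF2, −0.12 to 0.45 for SREBF2-AS1, −0.30 to 0.26 for ACAT2, −0.16 to 0.061 for TCP1 (0.044 without control replicate 2) and −0.39 to 1.52 for CERS6. A group with 1 library left is assumed to vary like the other group. The cause was not tested.

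The BHB minus control difference of the log2 ratio ran from −0.37 to 0.73 for FDPS, 0.90 to 1.24 for IDI1, −0.67 to 2.52 for SREBF2, −0.17 to 0.22 for ACAT2 and −1.29 to 1.29 for CERS6, the first of each pair. For CERS6 it was −0.00094, and 0.017 with a pseudocount of 0.1. With the replicate block the log2 fold change was 0.86 for SREBF2 and 0.45 for CERS6, above the values without it (0.52 and 0.21), nearer 0 for FDPS (−0.08) and ACAT2 (−0.03), and 0.80 for IDI1 and 0.53 for CERS6-AS1, and the pair differences were unchanged by construction. Same-numbered libraries did not deviate together (correlation −0.02 over features), so the numbers are not taken as pairs. Depth limits the low members most: FDPS, IDI1, SREBF2 and CERS6 had under 100 counts in each library.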
